A study of Homo sapiens with 12 samples.

Results

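The transcription factor p53 raises the expression of a large set of genes, and 10 of its best known targets are described here: MDM2, CDKN1A, BTG2, PLK2, BBC3, BAX, FAS, PHLDA3, GDF15 and SESN1. They were taken by name as rows of a table of RNA-seq read counts, and make up 10 of its 27130 genes. Earlier results of these data were known when they were chosen, so the shares called among them below are descriptions. All 10 passed the filter on low counts, as did 15437 genes in all. The cells were H1 (WA01), an established human embryonic stem cell line.

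Poly(A) RNA was sequenced from 4 groups of 3 libraries each. The groups were cells with a homozygous knockout of ZNF263, a zinc finger transcription factor, that also overexpressed the transcription factor ZIC2 (KO cells with ZIC2), cells with the ZNF263 knockout (KO cells), cells that overexpressed ZNF263 (ZNF263 OE cells), and wild type cells (WT cells). The library names of the KO and WT groups also carry the tag vec. Those of both knockout groups share a further tag that the WT and ZNF263 OE names lack. Whether the KO cells came from 1 clone, which vector was used, and whether libraries of the same group were grown as separate cultures are not given in the sources used here, so the p-values below measure only the spread between these libraries, which may be technical.

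In unstressed cells p53 is made and degraded continuously, because MDM2, the ubiquitin ligase that p53 itself induces, marks it for the proteasome. Damage to DNA and other stresses block this degradation, and p53 then binds a repeated ten-base element near its targets and raises genes that arrest the cell cycle (CDKN1A, BTG2, PLK2), start apoptosis through mitochondria or a death receptor (BBC3, BAX, FAS), restrain AKT and mTOR signalling (PHLDA3, SESN1) or signal to other cells (GDF15). Human embryonic stem cells are known for abundant p53 that is held in check and for rapid apoptosis after DNA damage. Several of the targets, GDF15, PLK2 and BTG2 among them, also answer to pathways other than p53.

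The members did not move as 1 block. In KO cells, 6 of the 10 rose relative to WT cells (PLK2, PHLDA3, BBC3, BAX, BTG2 and MDM2) and 0 fell, while 20.0% of all tested genes were called higher and 18.5% lower. In KO cells with ZIC2, 2 rose relative to KO cells (GDF15 and CDKN1A) and 3 fell (PLK2, PHLDA3 and MDM2), against 4.99% and 3.35% of all genes. Relative to WT cells, KO cells with ZIC2 had 7 members higher (GDF15, PLK2, CDKN1A, BTG2, BBC3, BAX and PHLDA3) and 0 lower, against 20.3% and 17.3% of all genes. In ZNF263 OE cells, 5 fell relative to WT cells (GDF15, PLK2, BTG2, CDKN1A and MDM2) and 0 rose, against 0.447% of all genes called lower and 0.317% called higher. Called means an adjusted p under 0.05 in the quasi-likelihood test of edgeR, and in each of the 3 directions without a call there was also no member at an unadjusted p under 0.05 and none by DESeq2.

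The median log2 fold change of the 10 members was 0.26 in KO against WT cells, where the median of all tested genes was -0.01. It was -0.05 in KO cells with ZIC2 against KO cells, where all genes had -0.00108, and 0.28 in KO cells with ZIC2 against WT cells, where all genes had 0.00382. In ZNF263 OE against WT cells it was -0.40, where all genes had 0.000339. The WT libraries serve in 3 of these comparisons and the KO libraries in 2, so the comparisons are not independent of each other. When read counts were corrected for GC content and length, the calls came to 5 members in KO against WT cells and to 4 in KO cells with ZIC2 against WT cells, and without ZNF263 OE replicate 3 to 2 members (GDF15 and PLK2) in ZNF263 OE against WT cells.

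**Figure D1:**
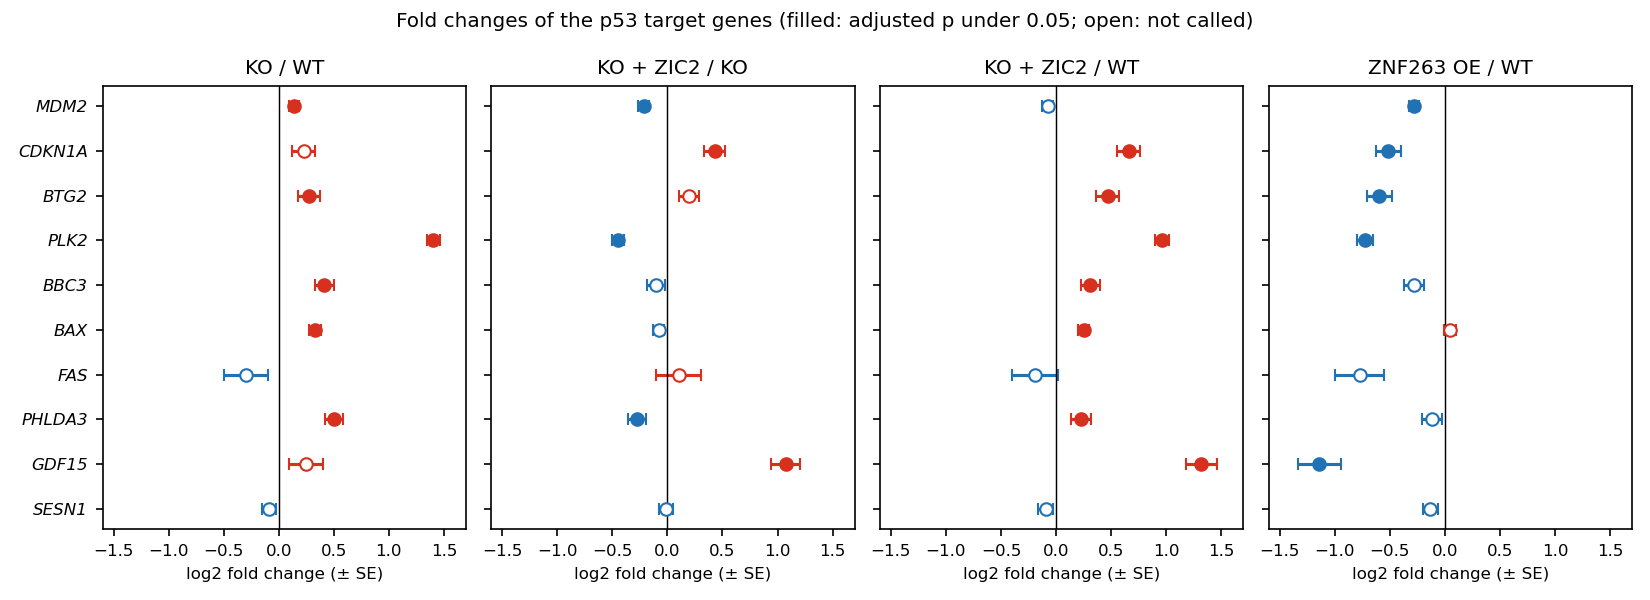
The log2 fold change of each p53 target gene, with its standard error, in the 4 comparisons; points right of 0 are higher in the group named first in the panel title, and filled points have an adjusted p under 0.05. PLK2 lies at 1.40 in KO / WT and GDF15 at 1.32 in KO + ZIC2 / WT, and in ZNF263 OE / WT the 5 filled points all lie left of 0.

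ZIC2 and ZNF263 were read as a check of the labels. ZIC2 averaged 2040 ± 175 CPM (reads of the gene scaled to a common library size, SD, n = 3) in KO cells with ZIC2, 156 ± 3.81 CPM in KO cells, 212 ± 4.67 CPM in ZNF263 OE cells and 209 ± 3.74 CPM in WT cells. ZNF263 averaged 32.3 ± 3.15, 31.1 ± 0.128, 239.6 ± 17.97 and 39.2 ± 1.35 CPM in the same order, so its transcript was 6.11-fold higher in ZNF263 OE than in WT cells but in KO cells still stood at 0.793 of the WT level (log2 fold change -0.33, adjusted p = 0.000302). The 12 pluripotency markers summed to between 8642 and 9290 CPM in every library. LIN28A and DNMT3B were the largest parts of this sum, and single markers moved in both directions. POU5F1 averaged 79.5, 82.5, 64.6 and 62.8 CPM in the same order of groups, and DPPA4 807, 870, 939 and 952 CPM. The markers of mesoderm, endoderm and trophoblast summed to at most 8.31 CPM a list, with SOX17 at 0 in the WT libraries. The 4 neuroectoderm markers (PAX6, SOX1, OTX1 and NES) summed to 463 to 516 CPM in KO cells with ZIC2 and 444 to 490 CPM in KO cells, but to 345 to 350 CPM in ZNF263 OE cells and 347 to 363 CPM in WT cells. NES made up nearly all of these sums, with means of 484, 465, 343 and 349 CPM in the same order of groups, while PAX6, SOX1 and OTX1 were each at most 2.80 CPM in any library. The 5 fibroblast markers, VIM included, summed to 823 to 897, 780 to 859, 668 to 704 and 648 to 681 CPM in the same order of groups. Not every one of them moved alike (COL1A1 averaged 211, 111, 64.9 and 69.2 CPM, and THY1 301, 344, 350 and 337 CPM). The part of these shifts in the results on the p53 targets was not tested, and in bulk RNA fewer expressing cells cannot be told apart from less RNA per cell. KO replicate 1 held 43464609 counts and the other 11 libraries 17175183 to 21804410.

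**Figure D2:**
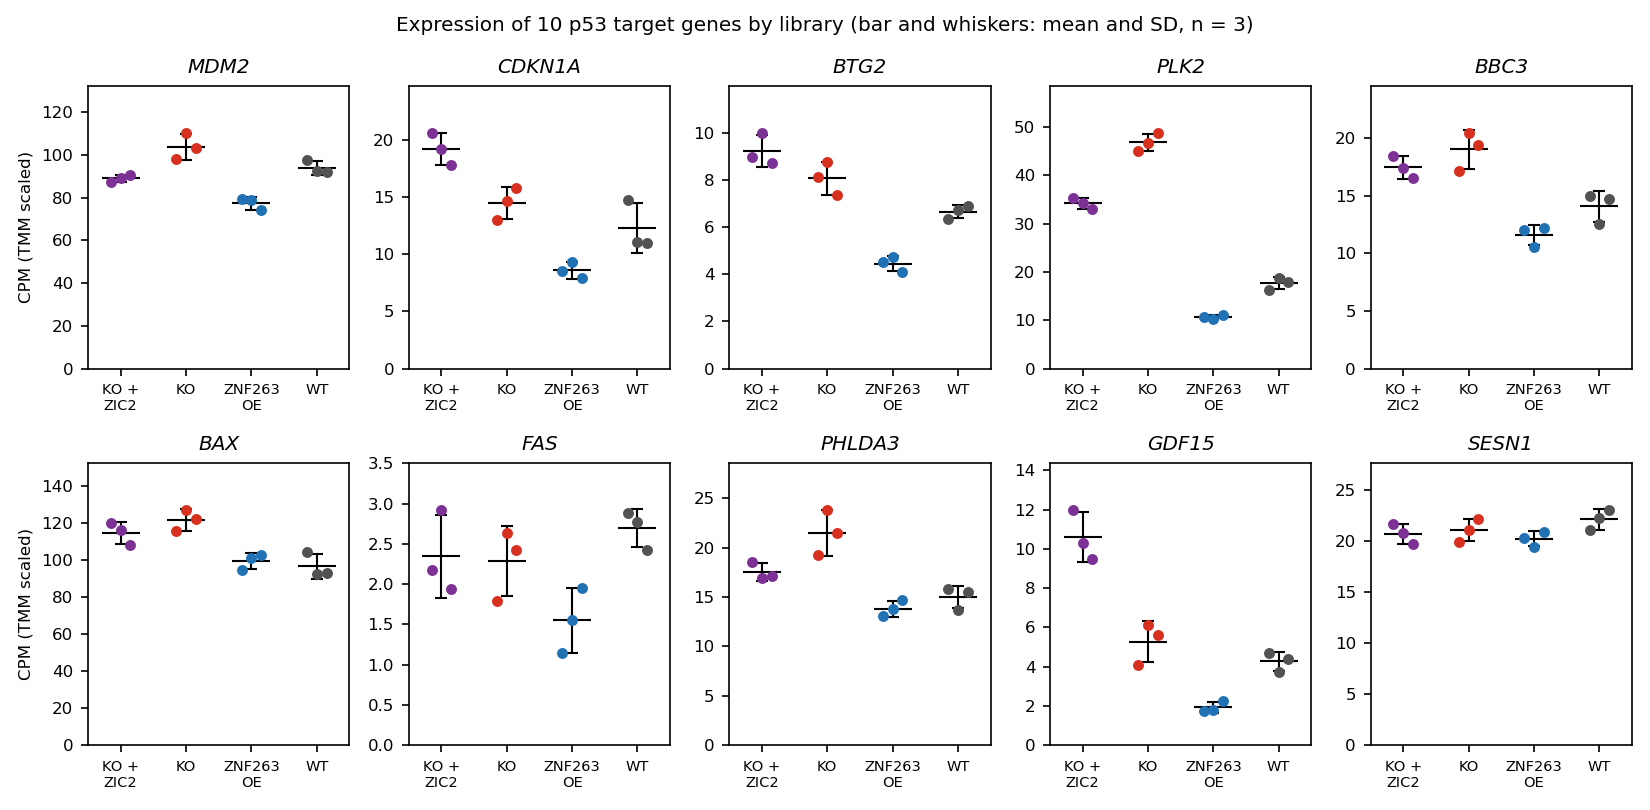
CPM of the 10 p53 target genes in each library (points) by group, with the group mean and SD (n = 3); each panel has its own axis from 0. PLK2 is highest in KO cells (46.8 CPM), GDF15 and CDKN1A in KO cells with ZIC2 (10.6 and 19.2 CPM), and SESN1 is between 19.5 and 23.1 CPM in all 12 libraries.

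Set per length of transcript, so that genes can be compared, BAX was the most abundant member, with 88.0 RPKM in KO cells with ZIC2, 93.3 RPKM in KO cells, 76.4 RPKM in ZNF263 OE cells and 74.1 RPKM in WT cells (CPM per kilobase of the gene, group means). FAS was the least abundant, with 0.549, 0.534, 0.362 and 0.631 RPKM in the same order. The other 8 members lay between 1.37 RPKM, for GDF15 in ZNF263 OE cells, and 16.5 RPKM, for PLK2 in KO cells. The proapoptotic BAX was thus present at several times the level of any other member in all 4 groups, while the death receptor FAS rested on only 21 to 77 reads per library.

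MDM2 (hg19 chr12:69201952-69239324) encodes the ligase that degrades p53 and is the classical feedback target. It had 87.5, 89.1 and 90.7 CPM in KO cells with ZIC2, 98.1, 110.2 and 103 CPM in KO cells, 79.5, 78.7 and 74.0 CPM in ZNF263 OE cells, and 97.6, 92.5 and 91.8 CPM in WT cells. The 3 ZNF263 OE libraries lay below all others, and the 3 KO libraries above all others. MDM2 fell in ZNF263 OE relative to WT cells (log2 fold change -0.28, SE 0.05, adjusted p = 0.00272, and 0.0526 without ZNF263 OE replicate 3). It rose in KO relative to WT cells by 0.14 (SE 0.05, adjusted p = 0.0185). That small difference lost its call without KO replicate 2 (adjusted p = 0.0841), WT replicate 2 (0.0867) or WT replicate 3 (0.101), and was 0.29 after correction for GC content and length (adjusted p = 4.47e-05). With ZIC2, MDM2 fell relative to KO cells by 0.22 on the log2 scale (SE 0.05, adjusted p = 0.00314). KO cells with ZIC2 were then at 0.948 of the WT level (log2 fold change -0.08, SE 0.05, adjusted p = 0.219). The sign of that difference turned, to 0.06, after the GC and length correction.

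CDKN1A (chr6:36644237-36655116) encodes p21, the cyclin-dependent kinase inhibitor through which p53 arrests the cell cycle. It had 20.6, 19.2 and 17.8 CPM in KO cells with ZIC2, 13.0, 14.7 and 15.8 CPM in KO cells, 8.51, 9.37 and 7.90 CPM in ZNF263 OE cells, and 14.8, 11.1 and 10.96 CPM in WT cells. All libraries with ZIC2 lay above all others and all ZNF263 OE libraries below all others, while KO and WT libraries overlapped through WT replicate 1. With ZIC2, CDKN1A rose relative to KO cells by 0.43 on the log2 scale (SE 0.10, adjusted p = 0.00469, and 0.0538 without the first replicate with ZIC2). Relative to WT cells the rise was 0.66 (SE 0.10, adjusted p = 3e-05), 1.58-fold. In KO against WT cells the log2 fold change of 0.23 (SE 0.10) missed the threshold with an adjusted p of 0.0851, but was called without WT replicate 1 (0.37, adjusted p = 0.00612), without KO replicate 1 (0.32, adjusted p = 0.0193) and with no filter on low counts (adjusted p = 0.0421). In ZNF263 OE cells CDKN1A fell relative to WT cells (log2 fold change -0.51, SE 0.12, adjusted p = 0.0362). This call was lost without any of the ZNF263 OE replicates 1, 2 or 3 (adjusted p = 0.122, 0.0721 and 0.24) and without WT replicate 1 (-0.37, adjusted p = 0.232).

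An antisense RNA gene, DINO, shares 238 exon bases with CDKN1A. The libraries were not made with a kit that marks the strand, so reads of the pair cannot be told apart where they overlap. DINO itself held 8 reads in the 3 libraries with ZIC2, 6 in KO, 1 in ZNF263 OE and 0 in WT libraries, against 1059, 1175, 499 and 694 reads of CDKN1A.

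BTG2 (chr1:203274664-203278729) encodes an antiproliferative protein that recruits the deadenylase of messenger RNAs. It had 8.97, 9.99 and 8.73 CPM in KO cells with ZIC2, 8.11, 8.75 and 7.37 CPM in KO cells, 4.53, 4.71 and 4.08 CPM in ZNF263 OE cells, and 6.36, 6.72 and 6.91 CPM in WT cells. The ZNF263 OE libraries were the lowest and the WT libraries came next, with no overlap, while both knockout groups were higher and overlapped each other. BTG2 fell in ZNF263 OE relative to WT cells (log2 fold change -0.59, SE 0.12, adjusted p = 0.0102). That call was lost without ZNF263 OE replicate 3 (adjusted p = 0.121), WT replicate 2 (0.0531) or WT replicate 3 (0.0762). BTG2 rose in KO cells with ZIC2 relative to WT cells by 0.47 (SE 0.10, adjusted p = 0.000934), a call that all 12 alternatives also gave. The rise in KO relative to WT cells was 0.27 (SE 0.10, adjusted p = 0.032), but only 3 of 12 alternatives called it, with adjusted p up to 0.119 (by DESeq2). It was lost without KO replicate 1 (0.0852) or 2 (0.101) and without WT replicate 1 (0.11), 2 (0.0794) or 3 (0.0586). KO cells with ZIC2 and KO cells differed by 0.19 on the log2 scale (SE 0.09, adjusted p = 0.248).

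PLK2 (chr5:57749810-57755966), a polo-like kinase that acts in centriole duplication and in the answer to stress, gave the largest difference of any member between KO and WT cells. It had 35.4, 34.3 and 33.1 CPM in KO cells with ZIC2, 45.0, 46.6 and 48.7 CPM in KO cells, 10.6, 10.3 and 11.03 CPM in ZNF263 OE cells, and 16.2, 18.7 and 17.9 CPM in WT cells. No group overlapped any other. PLK2 rose in KO relative to WT cells by 1.40 on the log2 scale (SE 0.06, adjusted p = 4.96e-14), 2.64-fold. With ZIC2 it fell relative to KO cells (log2 fold change -0.44, SE 0.05, adjusted p = 3.8e-06) and remained 1.94-fold above WT cells (log2 fold change 0.96, SE 0.06, adjusted p = 9.87e-11). In ZNF263 OE cells PLK2 fell to 0.605 of the WT level (log2 fold change -0.73, SE 0.08, adjusted p = 6.5e-06). PLK2 was the only member called in all 4 comparisons, and all 12 alternatives called it in each.

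GDF15 (chr19:18496770-18499987) encodes a secreted factor of the TGF-beta superfamily that cells release under stress. It had 12.01, 10.3 and 9.49 CPM in KO cells with ZIC2, 4.10, 6.11 and 5.60 CPM in KO cells, 1.75, 1.77 and 2.22 CPM in ZNF263 OE cells, and 4.68, 3.73 and 4.38 CPM in WT cells. The libraries with ZIC2 were above and the ZNF263 OE libraries below all others, while KO and WT libraries overlapped. With ZIC2, GDF15 rose 2.11-fold relative to KO cells (log2 fold change 1.08, SE 0.13, adjusted p = 3.72e-06) and 2.50-fold relative to WT cells (1.32, SE 0.14, adjusted p = 2.39e-07). In ZNF263 OE cells it fell to 0.454 of the WT level (log2 fold change -1.14, SE 0.20, adjusted p = 0.00312). These 3 calls stood in all 12 alternatives. In KO against WT cells the log2 fold change was 0.24 (SE 0.15, adjusted p = 0.222), and 0.45 (adjusted p = 0.0169) without KO replicate 1. The fall in ZNF263 OE cells rested on 113 reads in the 3 libraries, against 243 in WT libraries.

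The promoters of PLK2, CDKN1A and GDF15 are shown because PLK2 and GDF15 gave the largest called differences and CDKN1A is the other member that rose with ZIC2. Each window runs 250 bases before to 50 after the gene's start, 5′ to 3′ on the gene's strand, in RefSeq annotation of GRCh38.p14: PLK2 at chr5:58460037-58460336 on the minus strand, CDKN1A at chr6:36678464-36678763 on the plus strand and GDF15 at chr19:18385908-18386207 on the plus strand. Capitals mark an exact match to a single copy of the repeated p53 element in PLK2. They mark GGAGGA (the core of the ZNF263 motif) and CAGCAGG (a core of ZIC motifs) in CDKN1A, and GGAGGA and TATAAA in GDF15. Each was searched for on either strand, and none overlapped another.
PLK2: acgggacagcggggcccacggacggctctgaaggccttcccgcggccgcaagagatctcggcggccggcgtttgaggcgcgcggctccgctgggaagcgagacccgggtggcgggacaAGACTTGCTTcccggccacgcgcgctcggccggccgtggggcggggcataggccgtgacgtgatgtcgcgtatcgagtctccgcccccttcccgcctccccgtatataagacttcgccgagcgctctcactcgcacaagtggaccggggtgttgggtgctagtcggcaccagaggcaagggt
CDKN1A: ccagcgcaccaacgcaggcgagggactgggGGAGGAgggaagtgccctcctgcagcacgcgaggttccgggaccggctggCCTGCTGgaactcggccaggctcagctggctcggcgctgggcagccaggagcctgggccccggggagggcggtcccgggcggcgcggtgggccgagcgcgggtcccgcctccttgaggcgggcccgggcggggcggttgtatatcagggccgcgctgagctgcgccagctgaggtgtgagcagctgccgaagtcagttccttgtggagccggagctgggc
GDF15: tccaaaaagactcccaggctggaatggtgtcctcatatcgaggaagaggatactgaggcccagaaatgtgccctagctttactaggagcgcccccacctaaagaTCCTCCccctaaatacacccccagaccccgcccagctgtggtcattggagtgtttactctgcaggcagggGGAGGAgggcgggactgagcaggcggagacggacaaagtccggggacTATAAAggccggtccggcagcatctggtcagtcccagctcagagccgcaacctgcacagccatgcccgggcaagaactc
The capitals begin at base -132 in PLK2, at -220 (GGAGGA) and -170 (CAGCAGG, on the opposite strand) in CDKN1A, and at -146 (GGAGGA, on the opposite strand), -76 (GGAGGA) and -29 (TATAAA) in GDF15.

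RefSeq windows were matched for 9 of the 10 members, 16 windows in all because some genes have several starts, and some windows of MDM2 and of FAS overlap. An exact match to a single copy of the p53 element was found in 3 of the 16 windows, 1 each of PLK2, FAS and SESN1. The share over all 35116 promoter windows was 6.63%, and the other windows of FAS and SESN1 held no exact match. Neither the full repeat nor copies with a mismatch were searched for, so a window without a match may still hold a p53 site. GGAGGA was found in 4 of the 16 windows (CDKN1A, FAS and GDF15), against 36.6% of all windows. CAGCAGG was in 1 window, of CDKN1A, against 10.5%, and TATAAA in 1, of GDF15, against 11.5%. Of the genes with such a p53 match, PLK2 was called in every comparison, and SESN1 and FAS, the least abundant member, in none. Whether the matches bear on these calls was not tested. The matches are descriptions of letters in these windows, and binding was not measured here.

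BBC3 (chr19:47724079-47736023) encodes PUMA, a BH3-only protein that sets off apoptosis at mitochondria. It had 18.5, 17.4 and 16.5 CPM in KO cells with ZIC2, 17.2, 20.4 and 19.4 CPM in KO cells, 12.001, 10.6 and 12.2 CPM in ZNF263 OE cells, and 15.02, 12.5 and 14.7 CPM in WT cells. Both knockout groups lay above the WT libraries and overlapped each other, and the ZNF263 OE libraries lay below all others. BBC3 rose in KO relative to WT cells by 0.41 on the log2 scale (SE 0.08, adjusted p = 0.000412), and by 0.24 (adjusted p = 0.0161) after the GC and length correction. Relative to WT cells it rose in KO cells with ZIC2 by 0.31 (SE 0.09, adjusted p = 0.00738). That call was lost after the correction (0.11, adjusted p = 0.331), without the first replicate with ZIC2 (0.0505) and without WT replicate 2 (0.0718). KO cells with ZIC2 and KO cells differed by -0.10 on the log2 scale (SE 0.08, adjusted p = 0.552). In ZNF263 OE against WT cells the log2 fold change was -0.28 (SE 0.09, adjusted p = 0.224), called only after the correction (-0.33, adjusted p = 0.0351).

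BAX (chr19:49458117-49465055) encodes the protein that, once activated, opens pores in the outer mitochondrial membrane. It had 120.2, 116 and 108 CPM in KO cells with ZIC2, 116, 127 and 122 CPM in KO cells, 94.6, 101 and 103 CPM in ZNF263 OE cells, and 105, 92.5 and 93.1 CPM in WT cells. Both knockout groups lay above both other groups, and overlap was seen within each of these pairs. BAX rose in KO relative to WT cells by 0.33 on the log2 scale (SE 0.05, adjusted p = 3.14e-05). Relative to WT cells it rose in KO cells with ZIC2 by 0.25 (SE 0.05, adjusted p = 0.000752). After the GC and length correction the difference between KO and WT cells was 0.14 (adjusted p = 0.00356), and that between KO cells with ZIC2 and WT cells was 0.03 (adjusted p = 0.658). KO cells with ZIC2 and KO cells differed by -0.08 (SE 0.05, adjusted p = 0.43), or -0.11 after the correction (adjusted p = 0.0278). ZNF263 OE and WT cells differed by 0.05 (SE 0.05, adjusted p = 0.826).

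FAS (chr10:90750316-90776818) encodes the receptor of the Fas ligand, which triggers apoptosis from the cell surface. It had 2.18, 2.93 and 1.93 CPM in KO cells with ZIC2, 1.79, 2.63 and 2.42 CPM in KO cells, 1.15, 1.55 and 1.95 CPM in ZNF263 OE cells, and 2.89, 2.77 and 2.43 CPM in WT cells. The ZNF263 OE libraries lay below the WT libraries without overlap, and every other pair of groups overlapped. The log2 fold change in ZNF263 OE against WT cells was -0.77 (SE 0.22) with an adjusted p of 0.123, and it was called with no filter on low counts (adjusted p = 0.025) and when only these 2 groups were fitted (0.0248). The other 3 comparisons gave -0.30 in KO against WT, 0.10 in KO with ZIC2 against KO and -0.19 in KO with ZIC2 against WT cells, with standard errors of 0.20 to 0.21 and none called. FAS shares 110 exon bases with ACTA2 on the opposite strand, which held 61 reads in the 3 libraries with ZIC2, 100 in KO, 55 in ZNF263 OE and 74 in WT libraries, against 129, 179, 92 and 153 reads of FAS. FAS also shares 203 exon bases with FAS-AS1 on the opposite strand, which held 1, 3, 0 and 1 reads in the same order. Reads from the shared bases cannot be assigned.

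PHLDA3 (chr1:201433412-201438299) encodes a pleckstrin homology protein that keeps AKT from the membrane. It had 18.6, 16.9 and 17.1 CPM in KO cells with ZIC2, 19.2, 23.9 and 21.5 CPM in KO cells, 13.0, 13.8 and 14.7 CPM in ZNF263 OE cells, and 15.8, 13.7 and 15.5 CPM in WT cells. KO libraries were the highest, those with ZIC2 came next without overlap, and ZNF263 OE and WT libraries overlapped below them. PHLDA3 rose in KO relative to WT cells by 0.50 on the log2 scale (SE 0.08, adjusted p = 4.38e-05), called in all 12 alternatives. With ZIC2 it fell relative to KO cells (log2 fold change -0.27, SE 0.08, adjusted p = 0.0336). This call was lost without KO replicate 2 (0.106) or 3 (0.0854), without replicate 2 (0.126) or 3 (0.108) with ZIC2, by DESeq2 (0.0607) and when only the 2 groups were fitted (0.0727). KO cells with ZIC2 stayed above WT cells by 0.23 (SE 0.09, adjusted p = 0.0455), a call that only 3 of 12 alternatives gave. It was lost without any 1 of the 3 libraries with ZIC2 (adjusted p = 0.19, 0.0538 and 0.0602) and without WT replicate 2 (0.231) or 3 (0.075). The difference was 0.04 (adjusted p = 0.766) after the GC and length correction. In ZNF263 OE against WT cells the log2 fold change was -0.11 (SE 0.09, adjusted p = 0.712).

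SESN1 (chr6:109307640-109415708) encodes a sestrin, which restrains mTORC1 and oxidative damage. It had 21.7, 20.8 and 19.7 CPM in KO cells with ZIC2, 19.97, 21.1 and 22.1 CPM in KO cells, 20.3, 19.5 and 20.9 CPM in ZNF263 OE cells, and 21.1, 22.3 and 23.1 CPM in WT cells. The groups overlapped, except that the ZNF263 OE libraries lay just below the WT libraries. SESN1 was called in no comparison, with log2 fold changes of -0.08 in KO against WT, -0.01 in KO with ZIC2 against KO, -0.10 in KO with ZIC2 against WT and -0.13 in ZNF263 OE against WT cells. Their standard errors were 0.06 to 0.07, so SESN1 was measured more tightly than GDF15 or FAS.

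GC content moved with the 2 comparisons of a knockout group against WT cells. In KO against WT cells the median log2 fold change was -0.15 in the fifth of genes with the lowest GC content and 0.17 in the fifth with the highest, and KO cells with ZIC2 against WT cells gave -0.15 and 0.17. It was -0.04 and 0.05 in ZNF263 OE against WT cells, and -4.73e-05 and -0.00818 in KO cells with ZIC2 against KO cells. BBC3 (64.5% GC), PHLDA3 (61.3%), BAX (60.4%), GDF15 (60.2%) and CDKN1A (58.6%) are rich in GC, BTG2 has 51.1%, and PLK2 (44.1%), FAS (42.1%), MDM2 (41.4%) and SESN1 (41.2%) are poorer. With the correction for GC content and length, MDM2, PLK2, PHLDA3, BBC3 and BAX were called in KO against WT cells. CDKN1A, GDF15, BTG2 and PLK2 were called in KO cells with ZIC2 against WT cells. The rise of PLK2 in KO cells was 1.45 with the correction and 1.40 without it.

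**Figure D3:**
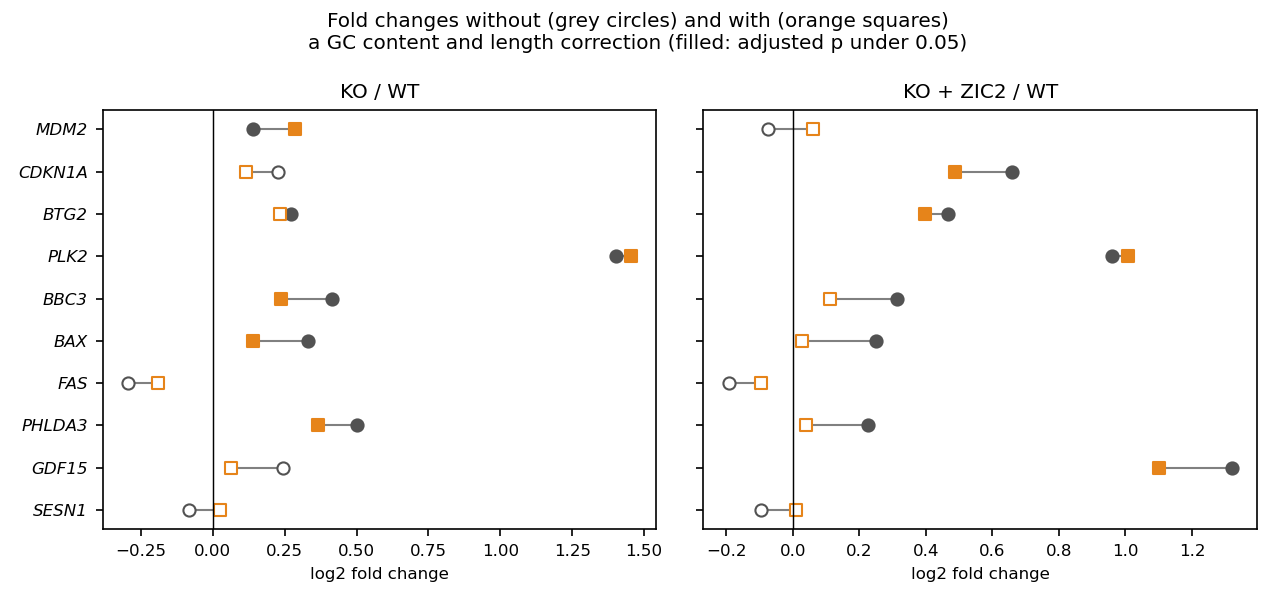
The log2 fold change of each member before (circles) and after (squares) correction for GC content and length, in KO / WT and KO + ZIC2 / WT; filled symbols have an adjusted p under 0.05. BAX is at 0.25 without and 0.03 with the correction in KO + ZIC2 / WT, and PLK2 at 1.40 without and 1.45 with it in KO / WT.

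MDM4, the partner of MDM2 that blocks p53, PPM1D, a phosphatase that p53 induces and that counters it, and USP7, which deubiquitinates p53 and MDM2, were called in no comparison. Their log2 fold changes ran from -0.13, for MDM4 in ZNF263 OE against WT cells, to 0.01, for PPM1D in KO cells with ZIC2 against KO cells. MDM4 in KO cells with ZIC2 against WT cells was at -0.12 (adjusted p = 0.0638) and was called lower with no filter on low counts (-0.13, adjusted p = 0.0403), without replicate 2 with ZIC2 (-0.16, adjusted p = 0.0272) and without WT replicate 3 (-0.17, adjusted p = 0.0192). After the GC and length correction it was at 0.01 (adjusted p = 0.942), and USP7 was called higher in KO than in WT cells (0.09, adjusted p = 0.0156).

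Among 20 tested regulators of p53, 3 rose and 7 fell in KO relative to WT cells. Their log2 fold changes ran from -0.42 to 1.91 there, with a median of -0.05. The shares of all tested genes called higher and lower were 20.0% and 18.5% there, and 20.3% and 17.3% in KO cells with ZIC2 against WT cells. They were 4.99% and 3.35% in KO cells with ZIC2 against KO cells, and 0.317% and 0.447% in ZNF263 OE against WT cells. The damage kinases ATM (71.4 CPM in KO, 91.0 CPM in WT cells; log2 fold change -0.34, adjusted p = 6.71e-05) and ATR (32.6 and 44.3 CPM; -0.42, adjusted p = 6.99e-05) fell, as did TP53BP1, a protein that binds at DNA breaks (135 and 176 CPM; -0.38, adjusted p = 2.82e-05). In KO cells with ZIC2 relative to WT cells 3 rose and 6 fell, and the 20 log2 fold changes ran from -0.60 to 2.32. ATR was at -0.60 (adjusted p = 2.19e-06), ATM at -0.27 (adjusted p = 0.001) and the checkpoint kinase CHEK1 at -0.20 (adjusted p = 0.000334). Relative to KO cells, HIPK2, a kinase that phosphorylates p53, rose with ZIC2 by 0.28 (adjusted p = 0.0184) and no regulator fell, while 1 had an unadjusted p under 0.05 in that direction and DESeq2 called none. HIPK2 lost its call without replicate 1 (0.0818) or 3 (0.108) with ZIC2 and when only the 2 groups were fitted (0.0538). In ZNF263 OE against WT cells edgeR and DESeq2 called no regulator, and 1 was lower at an unadjusted p under 0.05. After the GC and length correction 4 regulators, against 7 without it, were lower in KO than in WT cells. Without WT replicate 3, 1 regulator rose in KO and 1 in KO cells with ZIC2 relative to WT cells, and without replicate 1 with ZIC2 also 1 in KO cells with ZIC2. Against KO cells, 2 rose with ZIC2 without KO replicate 1 or replicate 2 with ZIC2, and 1 fell without KO replicate 2. With no filter or with the GC and length correction 2 rose and 1 fell there, and 2 rose with the replicate block.

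Of 35 further p53 targets, 9 rose and 3 fell in KO relative to WT cells, with a median of 0.10. The shares over all tested genes were 20.0% and 18.5%. GADD45A, a growth arrest and DNA damage gene, had 18.6 CPM in KO and 13.2 CPM in WT cells (log2 fold change 0.49, adjusted p = 0.000109), and BCL2L1, which encodes the antiapoptotic BCL-XL, had 65.8 and 51.8 CPM (0.34, adjusted p = 1.96e-05). CCNG1, cyclin G1, fell to 264 CPM in KO cells, against 323 CPM in WT cells (-0.29, adjusted p = 2.27e-06). With ZIC2 relative to KO cells, 5 rose and 2 fell, against 4.99% and 3.35% of all genes. They were led by SERTAD1, a coregulator of E2F, with 13.5 CPM with ZIC2 and 6.44 CPM in KO cells (1.10, adjusted p = 9.69e-08). The death receptor gene TNFRSF10B rose by 0.31 (adjusted p = 1.93e-05), and DRAM1, an autophagy gene, fell by 0.60 (adjusted p = 0.00307). These 2 small counts depended on single libraries: 2 rose without KO replicate 1, 9 without KO replicate 2 and 3 without KO replicate 3 or without replicate 2 with ZIC2, and 1 fell without replicate 1 or 3 with ZIC2. With the GC and length correction 7 fell.

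In KO cells with ZIC2 relative to WT cells, 13 of the 35 rose and 3 fell (8 rose with the correction). The shares over all genes were 20.3% and 17.3%. Among the 13 were SERTAD1 at 1.39 (adjusted p = 4.53e-09), GADD45A at 0.55 (adjusted p = 4.44e-05) and TP53I11 at 0.31 (adjusted p = 2.38e-05). In ZNF263 OE against WT cells, edgeR and DESeq2 called none of the 35, with a median of -0.09, while edgeR called 0.317% of all genes higher and 0.447% lower. At an unadjusted p under 0.05, 9 of them were lower and 1 higher, and GADD45A was at 10.1 CPM in ZNF263 OE and 13.2 CPM in WT cells (-0.38, adjusted p = 0.0804). With no filter on low counts 1 of the 35 was called lower, and 2 were when only the 2 groups were fitted or with the GC and length correction. Whether the 35 differ from the 10 listed members, of which 5 fell, was not tested.

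Of 18 BCL2 family genes and partners of the death receptors, 8 rose in KO relative to WT cells and 0 fell (0 at an unadjusted p under 0.05 and 0 by DESeq2), with a median of 0.14. Over all tested genes the shares called higher and lower were 20.0% and 18.5% there, and 20.3% and 17.3% in KO cells with ZIC2 against WT cells. They were 4.99% and 3.35% in KO cells with ZIC2 against KO cells, and 0.317% and 0.447% in ZNF263 OE against WT cells. BCL2, which opposes apoptosis, had 10.1 CPM in KO and 7.51 CPM in WT cells (0.44, adjusted p = 0.002). BCL2L11, a BH3-only gene that promotes apoptosis, had 28.3 CPM in KO and 24.1 CPM in WT cells (0.24, adjusted p = 0.00542). In KO cells with ZIC2 relative to WT cells 6 rose and 1 fell, with BCL2L11 at 0.33 (adjusted p = 0.000563) and BCL2L1 at 0.22 (adjusted p = 0.00194, and 0.231 after the GC and length correction). The 1 that fell was MCL1, named here after its value was seen, at -0.08 (adjusted p = 0.044). Its call was lost with the replicate block, without each of the 3 libraries with ZIC2 and without WT replicate 1 or 2. Between KO cells with ZIC2 and KO cells, edgeR and DESeq2 called none, although 5 were lower and 1 higher at an unadjusted p under 0.05. There 5 were called lower with the GC and length correction, 2 with no filter and 1 with RLE scaling or without KO replicate 2. In ZNF263 OE relative to WT cells 1 of the 18 fell and 0 rose (1 was higher at an unadjusted p under 0.05 and 0 by DESeq2). Without ZNF263 OE replicate 2 or 3 or WT replicate 1 or 3, 0 fell.

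Of 20 cell cycle genes that p53 lowers through CDKN1A and the DREAM repressor complex, 6 rose and 5 fell in KO relative to WT cells, with a median of -0.04. Among all tested genes, 20.0% rose and 18.5% fell there, and 20.3% and 17.3% did so in KO cells with ZIC2 against WT cells. TOP2A, the mitotic topoisomerase, was at 416 CPM in KO and 583 CPM in WT cells (-0.49, adjusted p = 1.57e-08), and the spindle checkpoint kinase BUB1 at 159 and 204 CPM (-0.35, adjusted p = 5.29e-07). MCM5, a subunit of the replicative helicase, was higher, at 427 and 339 CPM (0.33, adjusted p = 3.47e-07). With the knockout and ZIC2 together, 5 rose and 6 fell relative to WT cells, with TOP2A at -0.35 (adjusted p = 2.18e-06), MCM5 at 0.32 (adjusted p = 6.44e-07) and the mitotic kinase AURKB at 0.29 (adjusted p = 9.37e-06). The numbers that rose were 3 and 3 with the GC and length correction. In KO cells with ZIC2 against KO cells, where CDKN1A rose, edgeR and DESeq2 called none of these 20 genes. There edgeR called 4.99% of all tested genes higher and 3.35% lower. At an unadjusted p under 0.05, 2 of the 20 were higher and 0 lower (1 was called higher with no filter, without KO replicate 1 or without replicate 1 with ZIC2, and 2 higher and 1 lower with the GC and length correction). In ZNF263 OE against WT cells, where CDKN1A fell, edgeR and DESeq2 called none of the 20, and edgeR called 0.317% of all tested genes higher and 0.447% lower. Of the 20, 2 were higher and 0 lower at an unadjusted p under 0.05 (1 was called higher when only the 2 groups were fitted). A link between CDKN1A and these genes was not tested.

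Relatives of the members by family had changes of their own. Some are also in the lists above, SESN2 and PLK3 among the further p53 targets and PLK1 among the cell cycle genes. CDKN1C, a kinase inhibitor of the CDKN1A family that is known as an imprinted gene, averaged 22.0 CPM in KO cells with ZIC2, 17.1 CPM in KO cells, 5.52 CPM in ZNF263 OE cells and 6.26 CPM in WT cells. It rose by 1.43 in KO relative to WT cells (SE 0.11, adjusted p = 6.32e-10), by 1.82 in KO cells with ZIC2 relative to WT cells (SE 0.11, adjusted p = 1.16e-11) and by 0.39 relative to KO cells (SE 0.09, adjusted p = 0.00379, and 0.0511 without replicate 1 with ZIC2 and 0.05 without KO replicate 1). PHLDA2, a relative of PHLDA3, rose by 1.28 in KO (SE 0.16, adjusted p = 1.78e-06) and by 1.45 in KO cells with ZIC2 (SE 0.17, adjusted p = 5.64e-07), each relative to WT cells. SESN3 fell in KO relative to WT cells by 0.34 on the log2 scale (adjusted p = 1.19e-05), where SESN1 was not called, and rose with ZIC2 relative to KO cells by 0.17 (adjusted p = 0.0344, and 0.0671 to 0.145 without KO replicate 1 or 2 or replicate 1 or 3 with ZIC2). PLK4 fell in KO cells with ZIC2 relative to WT cells by 0.35 (adjusted p = 1.15e-05), where PLK2 rose. GDF3, of the same superfamily as GDF15, fell with ZIC2 relative to KO cells by 0.63 (adjusted p = 3.42e-05), where GDF15 rose. Of all 13 relatives, 8 rose and 4 fell in KO relative to WT cells (5 rose with the GC and length correction, and 5 without WT replicate 3). In KO cells with ZIC2 relative to WT cells 6 rose and 4 fell (2 fell without replicate 1 with ZIC2 or WT replicate 1). Relative to KO cells, 2 rose and 2 fell with ZIC2 (0 rose without KO replicate 1 or replicate 1 with ZIC2, 1 rose without KO replicate 2 or replicate 3 with ZIC2, and 1 fell without KO replicate 1 or 3 or replicate 1 or 3 with ZIC2). In ZNF263 OE relative to WT cells 0 rose and 1 fell. The 1 that fell, PHLDA1, was at -0.21 (adjusted p = 0.0362) and lost its call without any 1 of the 6 libraries compared, with adjusted p of 0.0736 to 0.195. No relative was higher by edgeR or DESeq2 in ZNF263 OE cells, with 3 at an unadjusted p under 0.05. The shares of all tested genes called higher and lower were 20.0% and 18.5% in KO against WT cells, and 20.3% and 17.3% in KO cells with ZIC2 against WT cells. They were 4.99% and 3.35% in KO cells with ZIC2 against KO cells, and 0.317% and 0.447% in ZNF263 OE against WT cells.

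**Figure D4:**
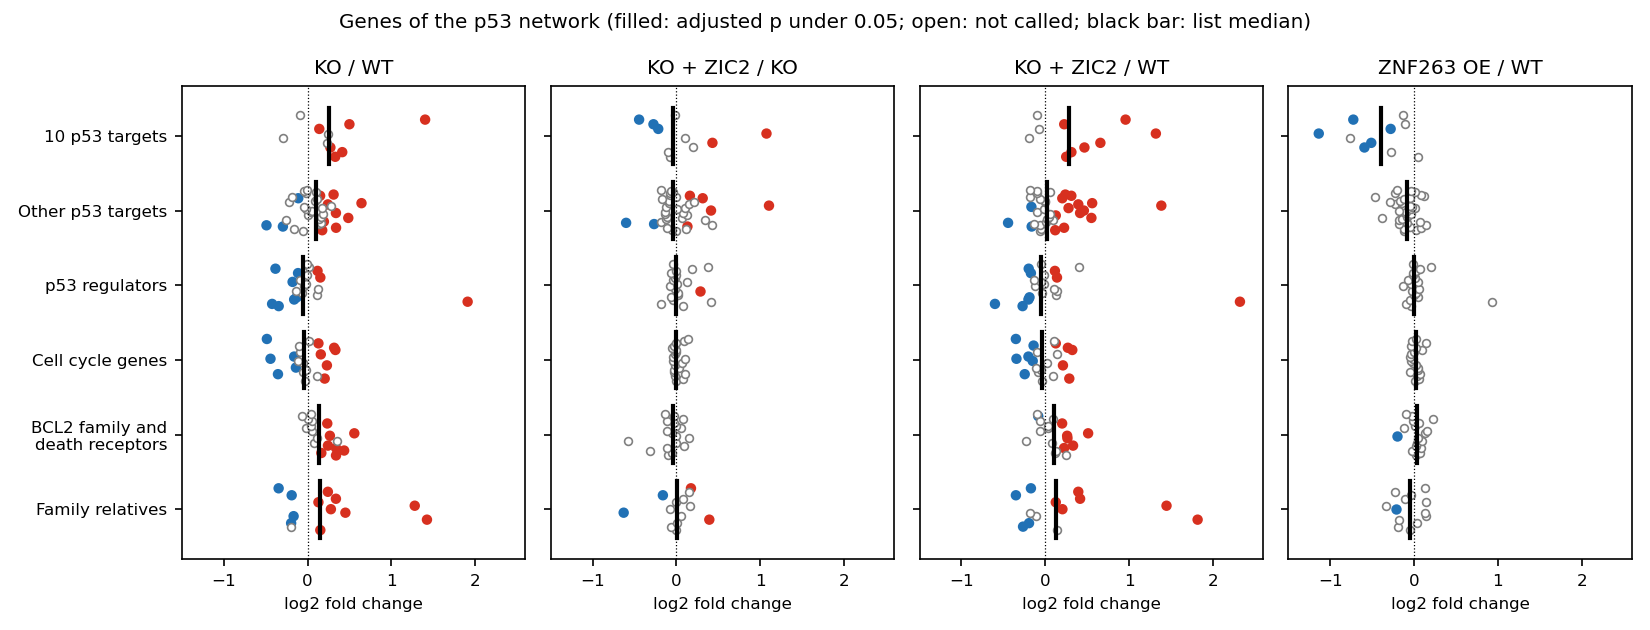
The log2 fold change of every tested gene in 6 lists (rows) in the 4 comparisons (columns); filled points have an adjusted p under 0.05, red is higher and blue lower in the group named first, and the black bar is the list's median. In ZNF263 OE / WT the 10 p53 targets hold 5 filled points and a median of -0.40, where 0.447% of all tested genes were called lower and 0.317% higher. The other 5 lists, which differ in size and share some genes, together hold 2 filled points. Whether the lists differ was not tested.

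The genes whose levels ran most like those of MDM2 over the 12 libraries were APOBEC3C and ANP32B, each with a root mean square difference of 0.06 between log2 CPM values centred on each gene's mean, where MDM2 itself varied by 0.16. For CDKN1A they were GADD45A, GDPD5 and FSCN1, at 0.15, 0.16 and 0.17, where CDKN1A itself varied by 0.44. These are descriptions over 10779 genes searched in libraries that share the same 4 groups. GADD45A was the only gene among these 5 that is also in the list of p53 targets.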

How the data were processed

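Poly(A) RNA-seq of 12 libraries of H1 cells was used, 3 in each of 4 groups taken from the sample labels. The deposited table gives raw counts of reads for each gene and library, without normalization, beside the gene positions and lengths. STAR, featureCounts, DESeq2 and the hg19 build are named, without versions or settings, per the submitters' processing notes. The RNA kit named in the labels' protocols does not mark the strand.

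Counts were scaled by TMM, filtered with filterByExpr and tested by quasi-likelihood (edgeR 4.0.16, R 4.3.3) on all 12 libraries with group as the only term (8 residual degrees of freedom, common biological coefficient of variation 0.04). P-values were adjusted over all 15437 genes tested, by Benjamini-Hochberg within each comparison, and called under 0.05. CPM uses TMM library sizes, and RPKM divides CPM by the deposited gene length. Standard errors are the log2 fold change over the square root of F. The code was tested on simulated data. Alternatives were RLE scaling, no filter, DESeq2 1.42.0, a fit of the 2 groups compared, a replicate block, a correction for GC content and length (mgcv 1.9.3, 95.2% of tested genes with a GC value, from GENCODE transcripts matched by symbol) and each library left out, 12 per member and comparison.

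The members and gene lists were chosen with earlier results of these data known. PPM1D, CHEK1, BCL2L1, PMAIP1, SESN2, PLK3 and PLK1 each sit in several lists, so the counts of the lists are not independent. All 10 members were named, with MDM4, PPM1D and USP7, and from each list the 3 called genes of smallest adjusted p per comparison; some genes that this rule names are not reported here. Replicate pairs differed by more than counting error, and each was kept as its own replicate. In chi-square units per gene, pairs were at 3.43 to 10.5 in KO cells and 3.05 to 3.175 in KO cells with ZIC2. They were at 1.39 to 1.485 in ZNF263 OE cells and 1.43 to 2.89 in WT cells, so the spread was not alike in the groups that share the fit. Promoters are from RefSeq (GRCh38.p14).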

Additional observations from a re-analysis of the deposited data

How the results depend on the processing

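The number of p53 targets called stayed within 1.5 times of the reported one under every alternative in KO against WT cells (reported 6; 4 to 7 with a library left out) and in KO cells with ZIC2 against KO cells (reported 5; 4 to 5). In KO cells with ZIC2 against WT cells it was 7, 4 with the GC content and length correction, and 5 to 7 with a library left out. For ZNF263 OE against WT cells it was 5, and 2 to 4 with a library left out. The count of all genes was 1288 in KO cells with ZIC2 against KO cells, 2279 with the correction and 842 to 1476 with a library left out. In ZNF263 OE against WT cells it was 118, 220 with no filter, 431 when only the 2 groups were fitted, 237 with the correction and 50 to 77 with a library left out. Deviations of same-numbered libraries correlated by -0.11 to 0.112, and those of differently numbered libraries by -0.10 to 0.147. With so few libraries a group this cannot exclude a pairing, and the labels do not give one. With a replicate block 6, 5, 6 and 5 members were called in KO against WT, KO with ZIC2 against KO, KO with ZIC2 against WT and ZNF263 OE against WT cells, and the 1 lost was PHLDA3 (adjusted p = 0.0514).

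Signs turned only for differences that were not called in the reported fit, all small. The correction gave log2 fold changes of 0.026 (SESN1), 0.013 (PPM1D), 0.106 (MDM4) and 0.088 (USP7, adjusted p = 0.0156) in KO against WT cells, and -0.0093 (PPM1D) in KO cells with ZIC2 against KO cells. It gave 0.060 (MDM2), 0.0087 (SESN1), 0.0039 (PPM1D), 0.0078 (MDM4) and 0.028 (USP7) in KO cells with ZIC2 against WT cells, and 0.0085 (USP7) in ZNF263 OE against WT cells. With a library left out, PPM1D ran from -0.061 to 0.023 and USP7 from -0.035 to 0.0087 in KO against WT cells. In KO cells with ZIC2 against KO cells FAS ran from -0.11 to 0.22, SESN1 from -0.064 to 0.025 and PPM1D from -0.036 to 0.047. PPM1D ran from -0.054 to 0.024 in KO cells with ZIC2 against WT cells and from -0.070 to 0.00062 in ZNF263 OE against WT cells. The cause of these shifts was not tested. FAS (21 to 77 reads a library) and GDF15 in ZNF263 OE cells (113 reads in 3 libraries) are the values that depth limits most.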
